A study of Mus musculus with 4 samples.

Results

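The interferon-inducible GTPases are proteins that mouse cells make in large amounts after exposure to interferons and that act directly on pathogens inside the cell. The 9 genes considered here belong to 3 families: the guanylate-binding proteins Gbp2, Gbp3 and Gbp5 (GBP), the immunity-related GTPases Iigp1, Igtp, Ifi47 and Irgm1 (IRG), and the myxovirus resistance proteins Mx1 and Mx2 (Mx). Members were chosen by name, as every probe set whose only gene symbol in the platform annotation is one of these genes. This gave 10 probe sets for 8 genes, of 45037 probe sets in all. Gbp5 had no such probe set and was not analysed here. All 10 passed the filter on dim probe sets.

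The RNA came from bone marrow-derived macrophages of mice deficient in MyD88 (MyD88 -/-), the adaptor of most Toll-like receptors and of the interleukin-1 receptor, and this deficiency was shared by both groups. Marrow cells were grown for 6 days with recombinant human M-CSF. Unstimulated cells (0 min, 2 arrays) were compared with cells given zymosan, a yeast cell wall particle, at 100 ug/ml for 120 min (2 arrays). The sources used here give neither the strain, age and sex of the mice nor whether replicate arrays stand for separate mice or cultures. The p-values therefore set each group difference against the spread of these arrays only. In the zymosan pair that spread may be technical, while the unstimulated arrays differed in sex-linked genes, as given below. The titles of the unstimulated arrays also carry the letters LPS and PIC, one each, whose meaning for unstimulated cells the labels do not give. No unstimulated array at 120 min was analysed here, so the effects of 120 min in culture and of zymosan cannot be told apart. No wild-type array was analysed here.

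GBP and IRG proteins gather on the membranes of vacuoles that hold bacteria or parasites, and GBPs also coat bacteria in the cytosol and promote inflammasome activation. Within the IRG family, Iigp1 and Ifi47 are effectors that load onto such vacuoles, and Irgm1, Igtp and Irgm2 are regulators that keep the effectors off the cell's own membranes. Mx proteins are dynamin-like antiviral GTPases, Mx1 of the nucleus and Mx2 of the cytoplasm. Transcription of these genes is driven through interferon-stimulated response elements (ISRE) and gamma-activated sites (GAS) near their starts.

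Promoters are shown for the 5 members that have both array values and a RefSeq window, because interferons act on these genes largely through such elements near the start. RefSeq (GRCm38.p6) gave windows for 6 of the 9 members, Gbp2, Gbp3, Gbp5, Igtp, Ifi47 and Irgm1. The 250 bases before the transcription start were searched on both strands for 3 sets of letters: GAAA, any 2 bases and GAAA again (ISRE), TTCNNNGAA (GAS), and GGGA, any 2 bases and TTCC (an NF-kB site). For Gbp3 the first of its starts is shown. Capitals mark every ISRE match in the following sequences, which are written 5′ to 3′ on the strand of the gene and end at the base before the start.
Gbp2, chr3:142620413-142620662, plus strand: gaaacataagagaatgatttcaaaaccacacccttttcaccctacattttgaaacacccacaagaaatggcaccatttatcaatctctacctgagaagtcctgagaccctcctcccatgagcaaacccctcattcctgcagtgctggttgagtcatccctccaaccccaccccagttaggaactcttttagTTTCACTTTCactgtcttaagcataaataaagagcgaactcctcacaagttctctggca
Gbp3, chr3:142559794-142560043, plus strand: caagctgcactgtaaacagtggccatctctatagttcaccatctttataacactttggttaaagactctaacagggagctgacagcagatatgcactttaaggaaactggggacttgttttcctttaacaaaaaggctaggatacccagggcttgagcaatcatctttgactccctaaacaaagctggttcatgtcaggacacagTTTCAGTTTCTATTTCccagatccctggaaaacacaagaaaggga
Igtp, chr11:58199306-58199555, plus strand: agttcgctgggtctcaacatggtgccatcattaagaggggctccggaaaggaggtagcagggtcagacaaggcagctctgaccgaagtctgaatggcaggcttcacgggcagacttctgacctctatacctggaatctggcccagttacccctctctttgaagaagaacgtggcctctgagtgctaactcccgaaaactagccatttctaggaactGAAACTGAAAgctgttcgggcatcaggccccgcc
Irgm1, chr11:48871421-48871670, minus strand: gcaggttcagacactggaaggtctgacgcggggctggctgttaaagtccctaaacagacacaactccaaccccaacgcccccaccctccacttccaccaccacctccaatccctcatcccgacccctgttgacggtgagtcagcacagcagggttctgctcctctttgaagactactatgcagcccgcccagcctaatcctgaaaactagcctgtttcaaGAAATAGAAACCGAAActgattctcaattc
Ifi47, chr11:49076337-49076586, plus strand: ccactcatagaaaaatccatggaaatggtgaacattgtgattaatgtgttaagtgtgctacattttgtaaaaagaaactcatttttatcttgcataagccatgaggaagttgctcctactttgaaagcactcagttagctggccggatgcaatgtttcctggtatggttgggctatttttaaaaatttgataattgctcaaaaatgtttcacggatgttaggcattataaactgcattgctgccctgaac

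ISRE letters were found before 5 of the 6 members, against 3.46% of the 27025 genes with such a window. They were not particular to the members. Of the genes with a window in the lists described below, 6 of 7 other GBP and IRG genes held them. So did 12 of 28 other type I interferon-induced genes, 4 of 24 genes of interferon reception and signalling, and 2 of 20 linked to interferon-gamma and IRF1. Gbp2 had TTTCACTTTC from 59 to 50 bases before its start, and Igtp GAAACTGAAA from 34 to 25. In Gbp3 a pair of overlapping matches, TTTCAGTTTC and TTTCTATTTC, lay between 45 and 30 bases before the first of its starts, and its other start had none. Irgm1 also had overlapping matches, GAAATAGAAA and GAAACCGAAA, between 30 and 15 bases before its start. Ifi47 had none of the 3 motifs in its window, which says only that these letters are absent there.

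GAS letters were found before Igtp (TTCTAGGAA, 45 to 37 bases before the start, close to the ISRE and not overlapping it) and before Gbp5, so 2 of 6 members held them against 8.13% of all genes. The NF-kB letters were found before Gbp5 alone among the 6, against 1.36% of all genes. A match describes letters and does not show a bound site. RefSeq annotates Mx1 and Mx2 as transcribed pseudogenes in the C57BL/6J assembly, and many laboratory strains are known to carry defective Mx alleles.

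**Figure D1:**
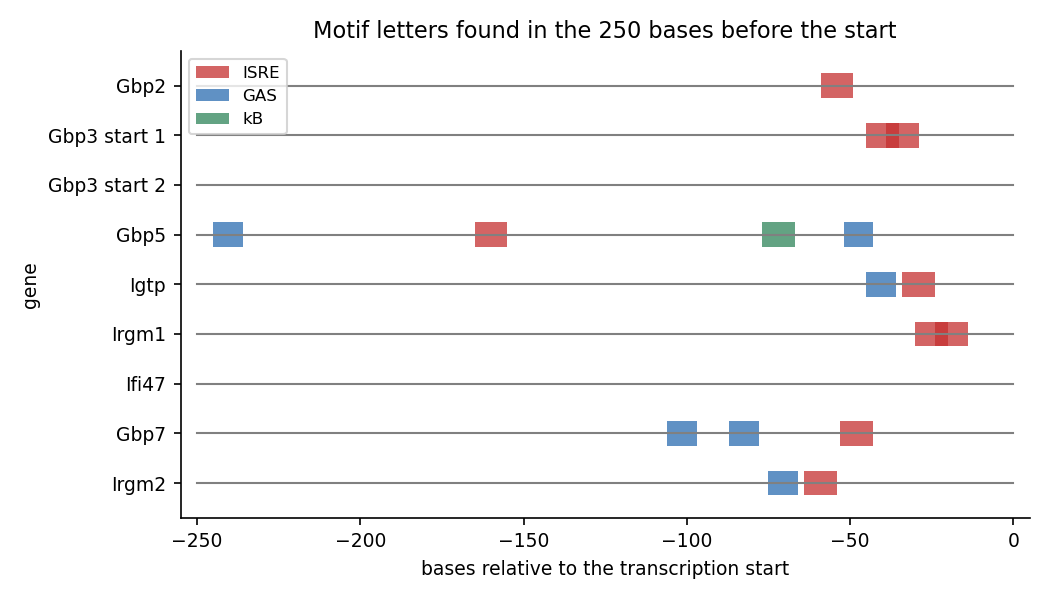
Positions of the ISRE, GAS and NF-kB (kB) letters in the 250 bases before the transcription start, in bases relative to the start (x) for 6 members and for Gbp7 and Irgm2 (y). The ISRE matches of Gbp2, Gbp3, Igtp and Irgm1 all lie within 59 bases of the start, and the Ifi47 line and the line of the other Gbp3 start are empty.

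The unstimulated arrays differed from each other in ways the label does not explain. Their processing days lay 16 days apart, and the zymosan arrays shared a single day 153 days after that of unstimulated 1. Each processing day belonged to 1 group, so the effects of day and zymosan cannot be told apart here. Xist, expressed from the inactive X chromosome, had log2 values of 2.87 on unstimulated 1, 10.45 on unstimulated 2, and 9.65 and 9.15 on the zymosan arrays. Eif2s3y, a Y-linked gene, was at 8.30 on unstimulated 1 and at 2.98, 3.02 and 3.19 on the others. On these genes unstimulated 1 stood apart from the other 3 arrays, in the way male RNA differs from female RNA, and results are therefore given against each unstimulated array. Myd88 itself read 8.75 ± 0.04 (SD, n = 2) unstimulated and 8.38 ± 0.02 with zymosan, a difference of -0.37 (adjusted p = 0.0673). Every array is labelled deficient, and where its probes lie with respect to the deleted part is unknown here, so this checks no label.

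The interferon-inducible GTPases were lower after zymosan. Of the 10 probe sets, 9 fell (limma, adjusted p under 0.05) and 0 rose, where 7.45% of the 27571 kept probe sets fell and 8.48% rose. None of the 10 was higher at an unadjusted p either. One of the 9, a probe set of Iigp1, passed the filter only through the unstimulated arrays, where it is high, and without it the count is 8 of 9. The remaining probe set, that of Gbp3, had the same sign. The median difference over the 10 was -1.15 on the log2 scale, beside -0.01 over all kept probe sets. Differences ran from -2.59 for Mx1 to -0.41 for Gbp3. Arrays of the groups did not overlap for 9 of 10 probe sets, where 30.2% of kept probe sets lay apart in the downward direction. These 9, and the median of -1.15, include the Iigp1 probe set that passed the filter only through the unstimulated arrays. Leaving out zymosan replicate 1 lost some of the member calls, and leaving out zymosan replicate 2 lost all of them. Calls over the whole array also became far fewer each time. All 10 member differences stayed negative, with medians of -1.17 and -1.12. In both cases the single zymosan array was assumed to vary like the unstimulated ones.

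**Figure D2:**
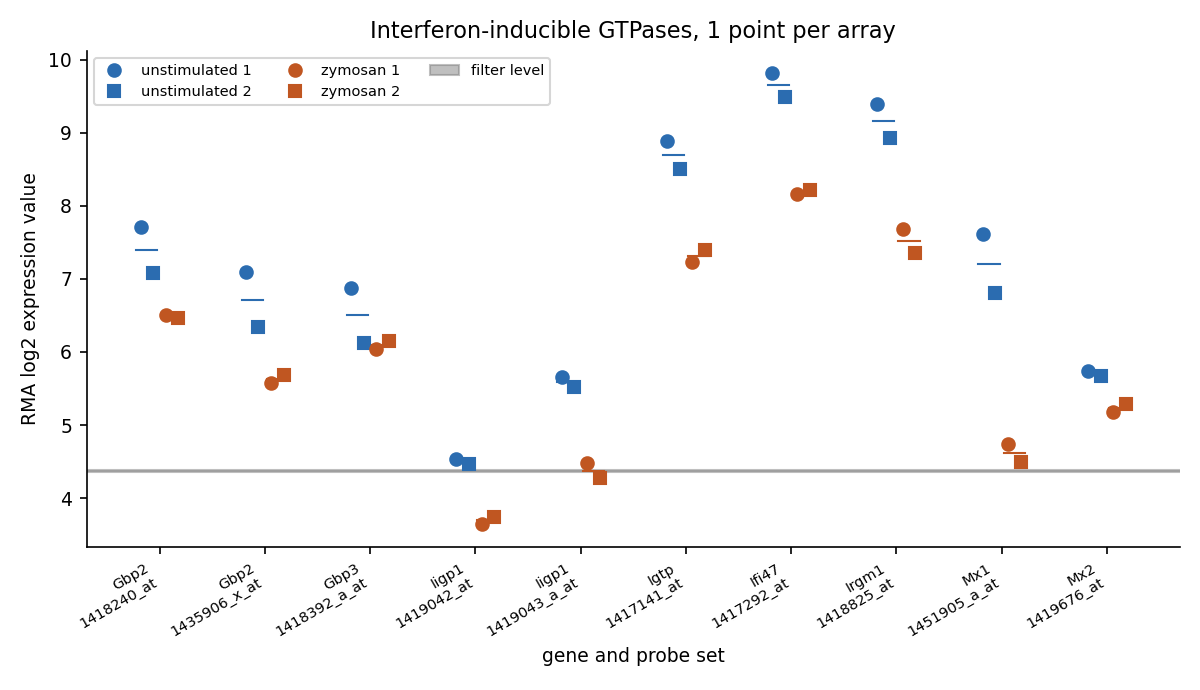
RMA log2 expression value (y) of each member probe set (x) on the 4 arrays, with a bar at each group mean and a grey band at the filter level (4.36 to 4.391). In every probe set but that of Gbp3 both zymosan points lie below both unstimulated points, and unstimulated 1 (blue circles) is the highest array throughout.

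The same genes also differed inside the unstimulated pair. All 10 probe sets were higher on unstimulated 1 than on unstimulated 2, where 52.3% of kept probe sets were. The gaps ran from 0.06 to 0.81 log2 units with a median of 0.43, beside a median size of 0.15 over all kept probe sets. Gaps between the zymosan arrays had a median size of 0.11 and reached 0.32 for Irgm1. The gap was not even over the families. It was 0.63 to 0.76 in the GBP probe sets, 0.06 to 0.47 in the IRG probe sets, and 0.81 and 0.08 in Mx1 and Mx2. Only 1.74% of kept probe sets had a gap larger in size than that of Mx1, and 2.14% one larger than that of Gbp3.

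Set against unstimulated 2 alone, the array that resembled the zymosan arrays in the sex-linked genes, the median difference of the members was -0.96, and against unstimulated 1 it was -1.37. All 10 stayed negative in both cases. A fit without either unstimulated array takes its spread from the same-day zymosan pair alone and leaves out the gap inside the unstimulated pair. Its calls therefore do not test that gap. The sex-linked genes and the processing day both differ between the unstimulated arrays and cannot be told apart as sources of this gap.

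**Figure D3:**
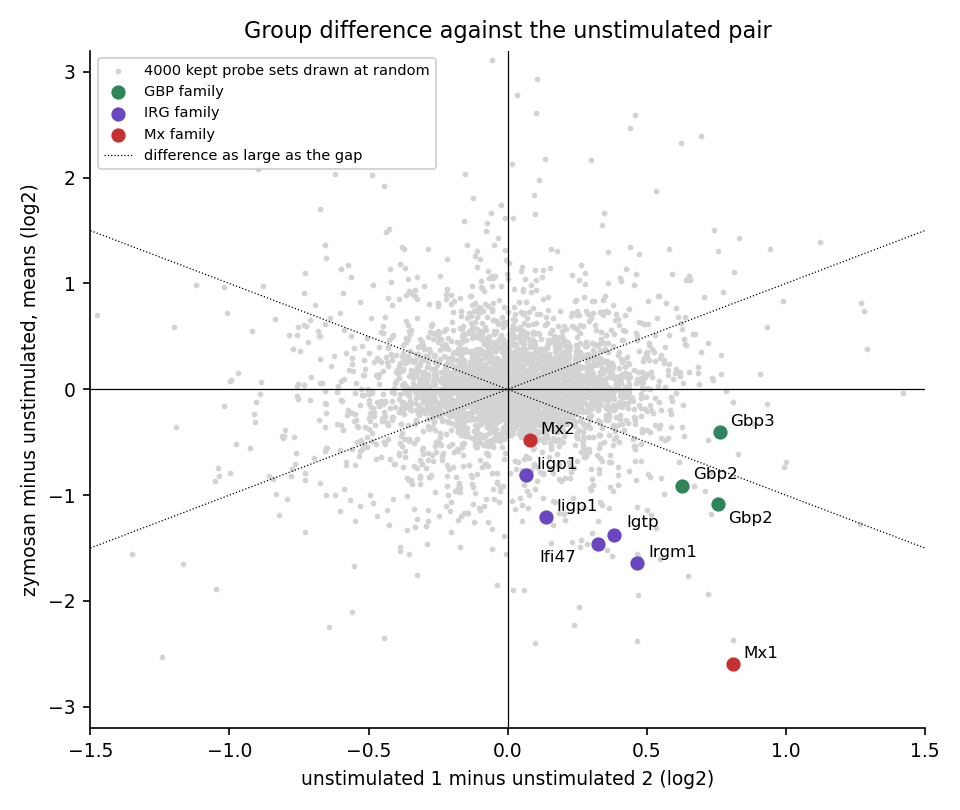
Zymosan minus unstimulated (y, log2, group means) against unstimulated 1 minus unstimulated 2 (x, log2) for the member probe sets in colour and for 4000 kept probe sets drawn at random in grey; points beyond the axes are not shown. All members lie to the right of 0 and below 0, and Gbp3 alone lies between the dotted lines where the gap exceeds the difference.

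Gbp2, a guanylate-binding protein that targets vacuoles and cytosolic bacteria, was read by a pair of probe sets. The first (1418240_at) had log2 values of 7.71 and 7.08 unstimulated and 6.51 and 6.46 with zymosan. It fell 1.88-fold, with a difference of -0.91 (SE 0.21, 95% interval -1.44 to -0.38, adjusted p = 0.0424). The zymosan arrays agreed closely, the unstimulated arrays lay 0.63 apart, and the groups did not overlap.

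The other Gbp2 probe set (1435906_x_at) read 7.09 and 6.34 unstimulated and 5.57 and 5.68 with zymosan. It fell 2.13-fold (-1.09, SE 0.25, adjusted p = 0.0399), so both probe sets gave the same direction and a similar size. The differences of means were only 1.45 and 1.44 times the unstimulated gaps of these probe sets. Against unstimulated 2 alone the differences shrank to -0.60 and -0.71. Both Gbp2 calls were lost with the day as a random block (adjusted p = 0.102 and 0.0948), without zymosan replicate 1 (0.175 and 0.186) and without zymosan replicate 2 (0.206 and 0.173). The call of 1418240_at was also lost with the filter removed (adjusted p = 0.0533).

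Gbp3 (1418392_a_at), another guanylate-binding protein of the chromosome 3 cluster that holds Gbp2, did not pass the test. Its values were 6.88 and 6.12 unstimulated and 6.04 and 6.15 with zymosan, so unstimulated 2 lay between the zymosan arrays. The difference was -0.41 (SE 0.25, 95% interval -1.03 to 0.22, adjusted p = 0.330), smaller than the unstimulated gap of 0.76. It was -0.02 against unstimulated 2 and -0.79 against unstimulated 1, so its value rests on unstimulated 1.

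The IRG genes all fell, and by more than their unstimulated gaps. Of the 4 genes, the regulator Irgm1 (1418825_at) had the largest fitted difference. Its log2 values were 9.40 and 8.93 unstimulated and 7.68 and 7.36 with zymosan, a 3.12-fold decrease (-1.64, SE 0.20, 95% interval -2.13 to -1.15, adjusted p = 0.00763). The distance between groups was 3.52 times the unstimulated gap. Its zymosan arrays were the farthest apart of any member, and the groups still did not overlap.

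Igtp (1417141_at), also called Irgm3, another regulator of the family, read 8.89 and 8.50 unstimulated and 7.23 and 7.40 with zymosan. It fell 2.60-fold (-1.38, SE 0.16, adjusted p = 0.00722), and each zymosan array was more than 1 log2 unit below each unstimulated array. Ifi47 (1417292_at), also called Irgd, an effector of the family, went from 9.82 and 9.49 to 8.17 and 8.22. It fell 2.75-fold (-1.46, SE 0.14, adjusted p = 0.00474), the smallest adjusted p among the members. Among the 6 members with a window, Ifi47 alone had none of the searched letters. Its difference lay between those of Igtp and Irgm1, and a link between letters and differences was not tested. The 3 differences were not tested against each other.

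Iigp1, also called Irga6, the effector best known from vacuoles of Toxoplasma, was measured near the lower end of the scale. One probe set (1419043_a_at) read 5.65 and 5.52 unstimulated and 4.48 and 4.27 with zymosan, with 1 zymosan array below the filter level. It fell 2.31-fold (-1.21, SE 0.13, adjusted p = 0.00576). The unstimulated arrays differed by only 0.14, a gap that 54.5% of kept probe sets exceeded.

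The other Iigp1 probe set (1419042_at) read 4.54 and 4.47 unstimulated and 3.64 and 3.74 with zymosan. Both zymosan arrays were below the filter level, so the decrease is given as at least 1.10-fold (fitted difference -0.81). This probe set passed the filter only through the unstimulated arrays, where it is high, so its adjusted p is taken from the fit with no filter (0.0112). Against unstimulated 1 and unstimulated 2 the fitted differences were -0.84 and -0.78. Iigp1 was thus the IRG gene least touched by the choice of unstimulated array.

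Mx1 (1451905_a_at), the nuclear influenza resistance protein, had the largest difference of all members. It read 7.61 and 6.80 unstimulated and 4.74 and 4.49 with zymosan, just above the filter level. It fell 6.04-fold (-2.59, SE 0.27, 95% interval -3.27 to -1.92, adjusted p = 0.00577). Against unstimulated 2 alone the difference was still -2.19. A difference as low was found in 0.0762% of kept probe sets, Mx1 included.

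Mx2 (1419676_at), its cytoplasmic relative, read 5.74 and 5.66 unstimulated and 5.17 and 5.28 with zymosan. The arrays of a group were close, and the groups did not overlap. The decrease was 1.39-fold (-0.48, SE 0.11, adjusted p = 0.0399). This call was lost without unstimulated replicate 1 (adjusted p = 0.0774) and without unstimulated replicate 2 (adjusted p = 0.0542), without zymosan replicate 1 (0.237) and without zymosan replicate 2 (0.180), with the filter removed (adjusted p = 0.0520) and with the day fitted as a random block (adjusted p = 0.143). Over its 10 alternatives the adjusted p ran from 0.0282 to 0.237 and the difference from -0.53 to -0.42.

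**Figure D4:**
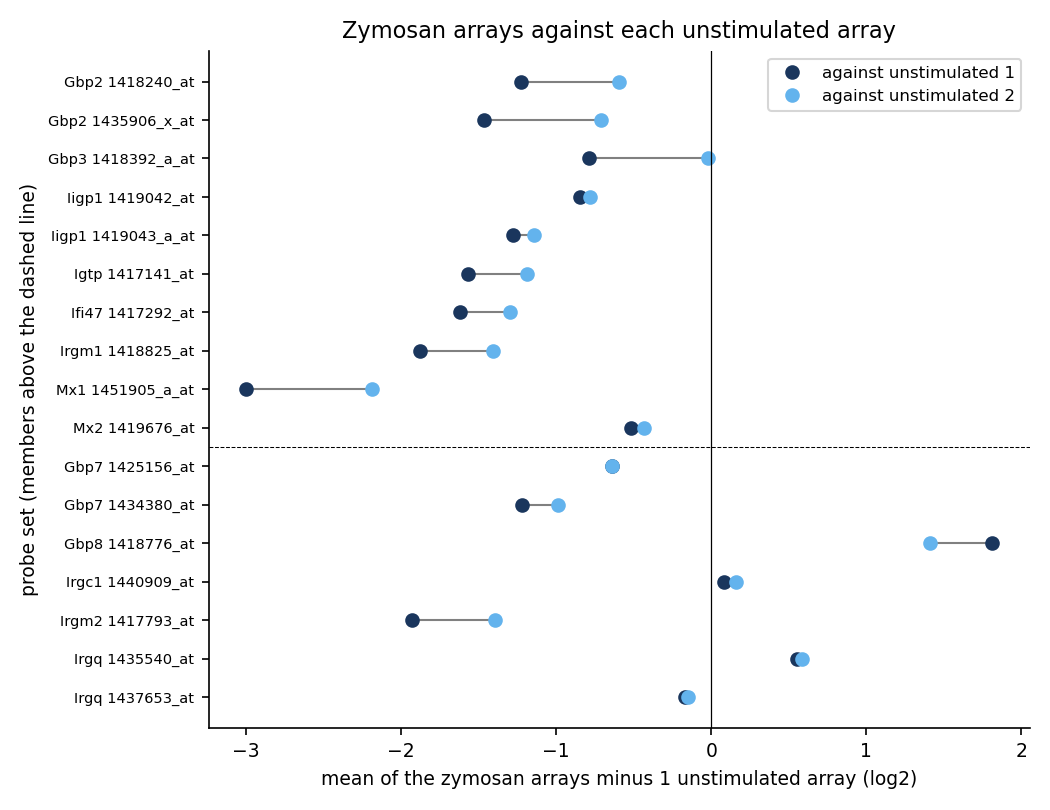
Mean of the zymosan arrays minus each unstimulated array (x, log2) for the 10 member probe sets and, under the dashed line, for the kept probe sets of other GBP and IRG genes (y). Dark points use unstimulated 1 and light points unstimulated 2; Gbp3 moves from -0.79 to -0.02, while Iigp1 and Mx2 barely move.

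Other genes of the GBP and IRG families went both ways. The list held 27 symbols, counting older names of the same genes, of which 7 had a probe set with a single symbol and 5 genes passed the filter. By limma's test over 13222 genes, with 1 probe set a gene, 2 fell and 2 rose, where 6.73% of all genes fell and 10.1% rose. One of those that rose, Gbp8, passed the filter only through the zymosan arrays. The other, Irgq, was not called with a gene's kept probe sets averaged, with no filter, with the day as a random block or without any 1 of the arrays. Without zymosan replicate 2, 0 fell by limma, although 2 had an unadjusted p under 0.05. Tested the same way, 7 of the 8 member genes fell, with a median difference of -1.29.

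Irgm2, the third regulator of the IRG family and the neighbour of Igtp on chromosome 11, read 8.46 and 7.93 unstimulated and 6.52 and 6.55 with zymosan. It fell 3.17-fold (-1.66), close to Irgm1. Its promoter holds GAAACTGAAA from 64 to 55 bases before the start, the same letters as Igtp, with the GAS letters TTCCAGGAA close by. The regulators Irgm1, Igtp and Irgm2 therefore all fell.

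Gbp7, which lies between Gbp5 and Gbp3 in the chromosome 3 cluster, fell at both of its probe sets. At 1434380_at it read 7.89 and 7.65 unstimulated and 6.76 and 6.57 with zymosan (2.15-fold lower). At 1425156_at it went from 5.63 and 5.63 to 5.11 and 4.87 (1.56-fold lower). Unlike Gbp3, Gbp7 lay apart between the groups at each probe set. Its window holds TTTCAGTTTC from 53 to 44 bases before the start.

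Gbp8 went the opposite way. It read 3.67 and 4.07 unstimulated, below the filter level, and 5.51 and 5.45 with zymosan, which is at least 2.13-fold higher (fitted difference 1.61). It passed the filter only through the zymosan arrays, where it is high, so its adjusted p is taken from the fit over genes with no filter (0.00309). Gbp8 lies outside the chromosome 3 cluster, beside Gbp9 and Gbp4. Probe sets that name both Gbp8 and Gbp4, both Tgtp2 and Tgtp1, or both Gm4070 and Gvin1 were not used.

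Irgq gave unlike readings, with 5.96 and 5.93 against 6.71 and 6.32 at one probe set and 5.37 and 5.36 against 5.29 and 5.12 at the other. The first was called at the level of genes (adjusted p = 0.0483) but not over probe sets (adjusted p = 0.0599). Irgc1 differed by 0.12 (adjusted p = 0.523 over probe sets). Probe sets of Gbp2b and Gbp6 did not pass the filter.

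GTPases of the dynamin superfamily outside these families, which shape mitochondria, endosomes and the endoplasmic reticulum, were measured for comparison. Of 8 kept genes 1 rose and 0 fell by limma, where 10.1% of all genes rose and 6.73% fell. None was lower at an unadjusted p under 0.05 either, and the list median was 0.09. With a gene's kept probe sets averaged the median was -0.12, with 1 higher and 1 lower, so the list has no settled direction. The gene that rose was Mfn2, a mitochondrial fusion protein (0.66, adjusted p = 0.0147). Its call was lost with the day as a random block (adjusted p = 0.0739), without zymosan replicate 1 (0.0793) and without zymosan replicate 2 (0.139). Atl3, Mfn1 and Dnm2 differed by -0.30, 0.31 and -0.22 without passing the test. ISRE letters were found in 0 of the 10 genes of this list with a window.

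Genes of interferon reception and signalling were mixed. Of 24 kept genes 7 fell and 5 rose, where 6.73% of all genes fell and 10.1% rose. The list median was -0.20, beside 0.00 over all genes. Irf7, which amplifies type I interferon production, fell by 2.81 on the log2 scale, with its unstimulated arrays 1.15 apart. Irf1, a factor that binds ISRE letters and is also induced by NF-kB, rose from 8.61 and 8.45 to 10.70 and 10.48. Socs3, a feedback inhibitor of cytokine receptors, rose by 1.95. With the day as a random block 3 genes of this list were lower and 4 higher. Without zymosan replicate 1 there were 2 and 2, and without zymosan replicate 2 there were 1 and 2.

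Other type I interferon-induced genes followed the direction of the GTPases, with 26 of 31 lower and 0 higher by limma and a median of -1.45. At an unadjusted p under 0.05, 0 were higher also. Of all genes, 6.73% fell and 10.1% rose. The genes of smallest p in this list were Ifi27l2a, Ddx60, Rtp4 and Oasl2, with differences of -3.42, -2.18, -3.11 and -3.10. Over all genes, 7601 of 13222 were higher on unstimulated 1 than on unstimulated 2, with a median gap of 0.04. Of the 31 genes of this list, 27 were, with a median gap of 0.49. Ddx60 was not among those, at 6.74 and 6.79 unstimulated against 4.56 and 4.61 with zymosan. When zymosan replicate 1 was left out 12 genes of the list were lower, and when zymosan replicate 2 was left out 8 were.

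Genes linked to interferon-gamma and IRF1 went both ways. Of 26 kept, 6 fell and 4 rose, with a median of -0.28, where 6.73% of all genes fell and 10.1% rose. Icam1, an adhesion molecule, and Cxcl10, a lymphocyte chemokine, rose by 1.32 and 1.19, and the Fc receptor gene Fcgr1 and Tapbp, which helps load peptides onto MHC class I, fell by 1.10 and 1.01. Without unstimulated replicate 2, 10 were lower, and with either zymosan array left out 2 were lower and 1 higher. The fit with the day as a random block called 2 lower and 2 higher. The difference between this list and the type I list was not tested.

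**Figure D5:**
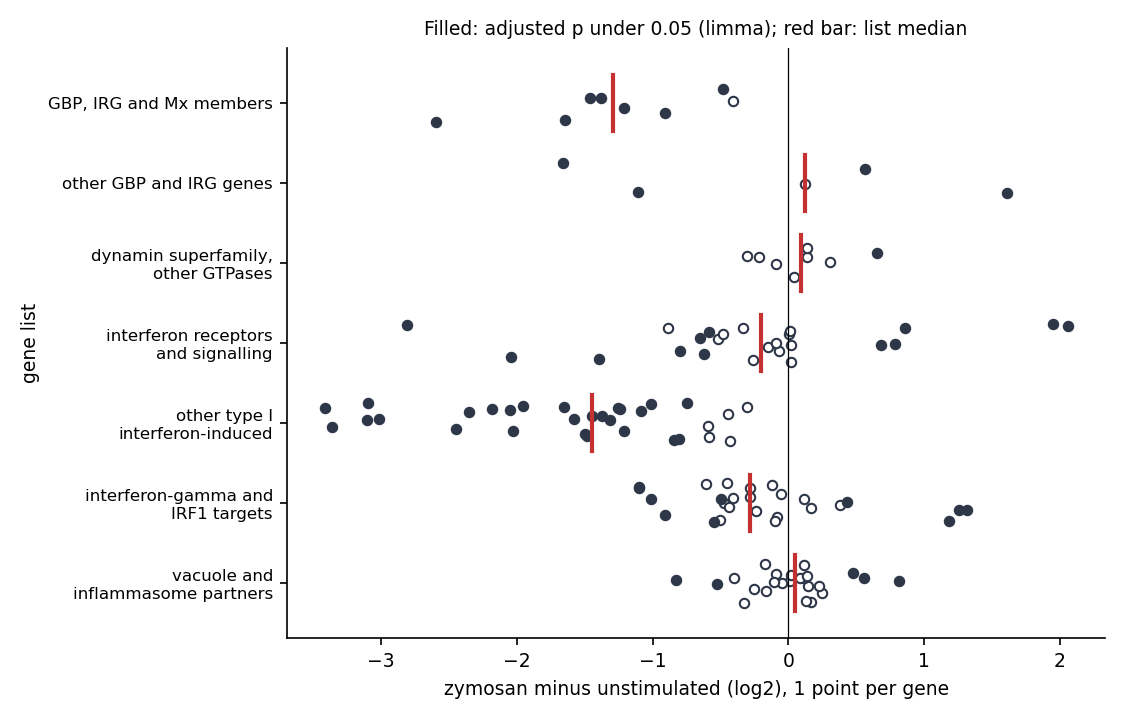
Zymosan minus unstimulated (x, log2) for each gene, represented by its kept probe set of highest mean, in the member genes and 6 gene lists (y); filled points passed limma's test at adjusted p under 0.05, and red bars are list medians. The member genes (median -1.29) and the other type I interferon-induced genes (median -1.45) sit left of 0, and the dynamin superfamily list (median 0.09) around it.

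Genes with the profile most like the members were found by the distance between each gene's values, centred on its own mean, and the mean centred profile of the 8 member genes over the 4 arrays. That profile was 0.85 and 0.41 on the unstimulated arrays and -0.61 and -0.65 on the zymosan arrays. The 5 nearest genes were Parp12, Samd9l, Slfn8, Trim30d and Dner, at distances from 0.0676 to 0.122 log2 units. Parp12 read 9.87 and 9.50 unstimulated and 8.46 and 8.44 with zymosan. Parp12, Samd9l, Slfn8 and Trim30d are known as interferon-induced genes. Over 4 arrays in 2 groups such closeness is a description only.

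Some markers of macrophages and of other cells differed between the groups. Over all genes, 6.73% were called lower and 10.1% higher. All 9 macrophage markers on the array passed the filter, and 5 of them were lower after zymosan. Their summed linear level was 50848 and 56544 unstimulated and 44843 and 44850 with zymosan. Granulocyte precursor markers were higher on the zymosan arrays in 9 of 10 genes, with summed linear levels of 609 and 550 unstimulated and 2018 and 2171 with zymosan. Of the lists of T and NK cells, of B and plasmacytoid dendritic cells, of dendritic cells and of erythroid cells and megakaryocytes, 3, 6, 5 and 4 genes passed the filter. Of these, 0 T and NK cell genes were called by limma (0 also at an unadjusted p under 0.05), 2 B and plasmacytoid dendritic cell genes and 1 dendritic cell gene were lower, and 2 erythroid and megakaryocyte genes were higher. Their summed linear levels were 185 and 201, 321 and 346, 431 and 450, and 6833 and 7332 unstimulated, against 175 and 193, 220 and 209, 356 and 383, and 9246 and 9743 with zymosan. In bulk RNA, fewer cells of a type and less RNA per cell cannot be told apart, and the part of these shifts in the levels of the GTPases was not tested.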

How the data were processed

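RNA was measured on 4 Affymetrix Mouse430_2 arrays. The authors deposited 1 log2 value per probe set and array, computed with RMA according to the submitters' processing notes. RMA corrects background, equalizes arrays and summarizes probes, and its version and array set are unknown here. Processing days were read per the file headers of the scanner settings. Array medians were 4.916 to 4.943, and nothing further was normalized.

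With 64 controls set aside, probe sets took their names from the platform annotation (34945 with 1 symbol, 932 with several, 9160 with none). Probe sets at or above their array's 40th percentile on 2 or more arrays were kept. A gene was represented by its kept probe set of highest mean. A group wholly below that level was set to it, and its fold is a lower bound.

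Differences are zymosan minus unstimulated, tested 2-sided with limma 3.58.1 (lmFit and eBayes, R 4.3.3). P-values were adjusted by Benjamini-Hochberg over every kept probe set (members, other GBP and IRG genes, Myd88) or all genes (lists), with a threshold of 0.05. The fit was also run on simulated arrays of independent noise with the same spread for every probe set. That simulation holds neither the processing day nor the wider spread of the unstimulated pair, so it does not bear on the calls here. The exact permutation test has a smallest 2-sided p of 0.333 at this size, so the test leans on variance shared across probe sets, and the number of arrays limits the precision.

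Members, lists and markers were chosen with earlier results of these data known. Named genes are the members, other GBP and IRG genes, the 4 genes with the lowest p of each other list, Myd88 and the 5 genes of most similar profile. One gene so named is not reported here. Xist and Eif2s3y were added after their values were seen. Alternatives were the filter, quantile normalization, median centring, an eBayes trend, the processing day as a block, each array left out and averaged probe sets of a gene.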

Additional observations from a re-analysis of the deposited data

How the results depend on the processing

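Every difference of a member probe set kept its sign under each alternative run. Of these values, 76 stayed on the same side of the threshold, 21 lost the call and 1, Gbp3 without unstimulated replicate 2, gained it. Member probe sets called lower were 9 of 10 in the main analysis, 7 with no filter, 7 of 8 tested with the 60th percentile filter, 6 with a random block for the processing day, and 0 to 9 when an array was left out. Probe sets called higher and lower over the whole array were 741 and 647 with that block, and 231 to 2531 and 157 to 2280 when an array was left out, the lowest without zymosan replicate 2. List genes called higher were 7 with that block and 4 to 15 when an array was left out, and those called lower 11 to 53. Fits without a zymosan array leave the unstimulated pair as the only source of the spread, and fits without an unstimulated array leave the zymosan pair.

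limma's duplicateCorrelation gave no estimate for 3 days over 4 arrays, so that alternative was not run in this form. The block used instead, chosen after seeing the data, took its correlation as 1 minus a ratio. That ratio was the mean squared difference of the same-day zymosan arrays over that of the unstimulated arrays. The correlation was 0.54 over probe sets and 0.57 over genes. No paired analysis was possible because the labels give the groups no shared replicate numbers. Signals near the filter level limit Iigp1, whose fold is a lower bound at 1 probe set.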

Other observations

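Partners of the GTPases at vacuoles and in inflammasomes were mostly not called. Of 24 kept genes 3 rose and 2 fell, with a median of 0.05, where 10.1% of all genes rose and 6.73% fell. Sqstm1, an adaptor that links ubiquitin to autophagy, read 12.02 and 11.62 unstimulated and 12.68 and 12.58 with zymosan and rose by 0.81. Atg5, of the conjugation system that IRG loading depends on, rose by 0.56. Trim21, a ubiquitin ligase and cytosolic antibody receptor that interferon induces, read 8.76 and 8.79 unstimulated and 7.83 and 8.06 with zymosan and fell by 0.83. Gsdmd, which forms the pore of pyroptosis, fell by 0.53. These calls rest on limma's test over genes with all 4 arrays, and the list had 0 higher and 1 lower with a random block for the processing day, and 0 and 0 without either zymosan array, where 3 were higher at an unadjusted p under 0.05 each time and 2 and 3 lower. ISRE letters were found in 0 of the 19 genes of this list with a promoter window.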
